A study of Homo sapiens with 6 samples.

Results

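37 genes that encode integrin subunits and laminin chains were followed in a 3' RNA-seq series on MDA-MB-231, an established human triple-negative breast cancer line. Members were taken by gene symbol: 18 integrin alpha subunits, 8 integrin beta subunits and 11 laminin chains, 37 of 24462 distinct symbols, with antisense and pseudogene symbols left out. Every one of the 37 was listed in the deposited counts, and 30 held enough counts to be tested. The 6 libraries form 3 groups of 2. Control cells carry, per the labels, a control retroviral plasmid. The other 4 libraries come from a stable line in which retroviral shRNA targets ELK3. That line received by lipofection 1 µg of plasmid, either the empty pLenti-cMyc-DDK vector or the same vector carrying ELK3, and was collected 48 hours later. No plasmid dose or time is recorded for the controls, so the knockdown and the transfection cannot be told apart in any contrast with them. The labels do not say whether replicates are separate cultures or whether the knockdown line is 1 clone, so the p-values measure the spread between these libraries, which may be technical.

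ELK3 itself, the targeted ETS-family transcription factor, ran against the sample labels. It stood at 128.6 and 123.9 CPM (read counts scaled to library size, with TMM factors) in the controls, at 758.9 and 697.2 CPM in the libraries labelled knockdown with vector, and at 20.4 and 22.6 CPM in the libraries labelled knockdown with ELK3. The column headings inside the deposited files also give the reverse assignment of the plasmid groups. The groups are called vector-labelled and ELK3-labelled here, after the sample labels. Under the reverse assignment every difference between the plasmid groups keeps its size and changes its sign. Library totals ran from 4884483 to 9131214 counts. At these depths 3 counts, the limit that a count of 0 allows at 95% confidence, stand for 0.319 to 0.645 CPM, a limit that covers counting error only. Of 25 genes typical of mesenchymal lines such as MDA-MB-231, 24 were lower and 1 was higher in both contrasts with the controls, with summed levels of 8392 to 8602 CPM in the controls, 2613 to 2722 in the vector-labelled and 2243 to 2301 in the ELK3-labelled libraries. Of 24 tested genes typical of the embryonic kidney line HEK293, 18 were higher and 3 lower in the vector-labelled libraries and 20 were higher and 2 lower in the ELK3-labelled libraries, with summed levels of 491.7 to 493.3, 1211 to 1260.0 and 1960 to 1974 CPM. By the same test, described below, 37.0% of all genes were higher and 35.3% lower in the vector-labelled libraries. The shares were 31.8% and 30.8% in the ELK3-labelled libraries. A difference in cell line between controls and plasmid groups and the labelled treatment cannot be told apart in any of the contrasts with the controls.

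Integrins are receptors made of an alpha and a beta subunit that span the membrane and tie the extracellular matrix to the actin cytoskeleton. The alpha subunit largely sets the ligand: collagens, laminins, proteins with an RGD sequence such as fibronectin and vitronectin, or counter-receptors on other cells. Laminins are trimers of an alpha, a beta and a gamma chain that build the basement membrane, and several integrins are their receptors. In breast epithelium the laminin receptors anchor cells to the basement membrane, and carcinoma cells use the same receptors to move and to signal.

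Summed over these 37 genes, levels were 2194 to 2243 CPM in the controls, 744.8 to 747.1 CPM in the vector-labelled libraries and 810.2 to 853.1 CPM in the ELK3-labelled libraries. These sums are dominated by the genes with many reads, and no test was made of them. Gene by gene the direction was mixed. Against the controls, 10 members were higher and 14 lower in the vector-labelled libraries. In the ELK3-labelled libraries 8 were higher and 14 lower. Calls are those of edgeR's quasi-likelihood test at a Benjamini-Hochberg adjusted p under 0.05, adjusted over all 15386 genes tested. By that rule 72.3% of all genes were called in the first contrast (37.0% higher, 35.3% lower) and 62.6% in the second (31.8% higher, 30.8% lower). The medians over the 30 tested members were -0.12 and -0.41 on the log2 scale, beside 0.05 and 0.02 over all genes tested. Both contrasts use the same control libraries. Of the 30 tested members, 19 passed the filter on low counts in all 3 groups, 9 in 2 groups and 2 (ITGA2B and LAMA2) in 1 group only. In the plasmid groups only, ITGA7, ITGA8, ITGAX, ITGB8, LAMA1, LAMA4 and LAMC3 passed. ITGB4 and LAMA3 did not pass in the ELK3-labelled libraries, and ITGA2B and LAMA2 passed in the vector-labelled libraries only. Most members called higher than the controls are among these genes, while ITGA4 and ITGAE passed in all 3 groups. A gene that passed only where it was high entered through that difference. Its calls against a group where it did not pass support nothing beyond its counts. The counts of members describe the family and support nothing beyond the single genes.

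RefSeq promoter windows, 250 bases before to 50 bases after a start in GRCh38.p14, matched 26 of the 37 members by symbol. A single window per member was used, so any other start of the same gene was not searched. They were searched on both strands for CCGGAA, a core bound by ETS-family factors, for the CArG box of SRF, for TGANTCA, which AP-1 binds, and for GGGCGG, the GC box. CCGGAA was found in 4 of 26 members, beside 17.2% of all 35116 windows. The CArG box was found in 1 of 26 (ITGB6), beside 1.29%, TGANTCA in 2 of 26 (ITGA5 and LAMA3), beside 7.71%, and GGGCGG in 14 of 26, beside 45%. The members with CCGGAA were ITGB1, ITGB5, LAMA5 and LAMB2, each lower than the controls in both plasmid groups. The LAMA5 call in the ELK3-labelled libraries ended in some other settings, given below. Of the 26 members, 10 were lower in both contrasts with the controls, 4 of them with CCGGAA and 9 with GGGCGG. Of the 5 higher in both, 0 held CCGGAA and 2 held GGGCGG. No test was made of these counts. Their windows are shown because they hold the core of the factor family targeted in the study. The window of LAMB3 is shown because LAMB3 had a far lower level in both plasmid groups and no CCGGAA. The windows are chr10:32958181-32958480 (minus strand) for ITGB1, chr3:124901369-124901668 (minus strand) for ITGB5, chr20:62367263-62367562 (minus strand) for LAMA5, chr3:49133001-49133300 (minus strand) for LAMB2 and chr1:209652376-209652675 (minus strand) for LAMB3. Capitals mark the core, which in all 4 lies on the opposite strand and so reads as its reverse complement, and its first base lies at -173 from the start in ITGB1, -43 in ITGB5, -191 in LAMA5 and -107 in LAMB2. A match of these letters is a description and not a measured binding site.
ITGB1: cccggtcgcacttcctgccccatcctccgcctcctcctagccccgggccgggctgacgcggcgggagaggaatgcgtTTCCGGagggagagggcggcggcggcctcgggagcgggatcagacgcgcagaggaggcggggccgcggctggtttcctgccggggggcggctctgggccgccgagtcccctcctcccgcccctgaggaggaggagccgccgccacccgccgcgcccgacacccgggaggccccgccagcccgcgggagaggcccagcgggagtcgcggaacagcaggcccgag
ITGB5: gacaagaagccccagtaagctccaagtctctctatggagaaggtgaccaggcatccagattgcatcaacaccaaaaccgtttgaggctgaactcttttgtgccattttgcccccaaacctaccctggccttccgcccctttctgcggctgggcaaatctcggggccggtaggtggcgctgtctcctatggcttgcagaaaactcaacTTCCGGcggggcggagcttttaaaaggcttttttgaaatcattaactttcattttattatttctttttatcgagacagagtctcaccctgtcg
LAMA5: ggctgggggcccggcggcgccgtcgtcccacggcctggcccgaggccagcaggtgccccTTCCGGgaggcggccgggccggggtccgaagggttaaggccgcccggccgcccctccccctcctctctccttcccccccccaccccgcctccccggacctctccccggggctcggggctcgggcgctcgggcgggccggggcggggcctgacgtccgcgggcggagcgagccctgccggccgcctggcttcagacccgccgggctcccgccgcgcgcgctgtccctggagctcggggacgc
LAMB2: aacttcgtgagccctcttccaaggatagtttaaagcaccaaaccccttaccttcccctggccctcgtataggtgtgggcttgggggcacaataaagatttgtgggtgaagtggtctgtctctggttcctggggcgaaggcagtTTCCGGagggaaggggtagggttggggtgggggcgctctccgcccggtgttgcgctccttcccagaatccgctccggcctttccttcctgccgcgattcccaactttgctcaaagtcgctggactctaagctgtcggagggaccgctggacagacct
LAMB3: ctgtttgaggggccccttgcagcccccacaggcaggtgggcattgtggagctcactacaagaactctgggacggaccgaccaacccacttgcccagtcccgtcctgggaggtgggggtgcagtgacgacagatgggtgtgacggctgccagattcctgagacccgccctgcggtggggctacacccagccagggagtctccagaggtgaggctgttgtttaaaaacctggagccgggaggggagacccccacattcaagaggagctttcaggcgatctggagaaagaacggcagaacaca

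Among receptors for laminin, the subunits of the epithelial receptors were far lower in both plasmid groups. ITGA3, the alpha subunit of the main receptor for epithelial laminins, had 239.9 and 189.9 CPM in the controls, 6.46 and 5.20 CPM in the vector-labelled libraries and 5.72 and 8.61 CPM in the ELK3-labelled libraries. The controls stood far above all 4 plasmid libraries, and the plasmid groups overlapped. ITGA3 was thus 36.8-fold lower in the vector-labelled libraries (log2 fold change -5.18 ± 0.16 SE, adjusted p = 2.41e-23) and 30-fold lower in the ELK3-labelled libraries (-4.86 ± 0.15, adjusted p = 1.2e-23). ITGA6, which pairs with ITGB1 or ITGB4, fell from 290.1 and 278.7 CPM to 24.7 and 22.4 CPM and to 24.3 and 21.5 CPM. Its log2 fold changes were -3.59 ± 0.11 and -3.64 ± 0.11, and between the plasmid groups it differed by -0.06 ± 0.13 (adjusted p = 0.722). ITGB4, the beta subunit of hemidesmosomes, fell in steps, from 14.0 and 12.3 CPM to 2.35 and 2.20 CPM in the vector-labelled and 0.795 and 0.744 CPM in the ELK3-labelled libraries. The 3 groups did not overlap for ITGB4, which was 5.77-fold and 17.1-fold lower than in the controls. The step between the plasmid groups rests on few reads (27 against 12 counts per group) and its call ended without ELK3-labelled replicate 2 (adjusted p = 0.0555). ITGA7, the laminin receptor of muscle, went the other way, from 2.72 and 1.51 CPM to 4.70 and 5.4 CPM and to 6.20 and 8.61 CPM. On the log2 scale ITGA7 was 1.23 ± 0.4 above the controls in the vector-labelled libraries (adjusted p = 0.00635). In the ELK3-labelled libraries it was 1.82 ± 0.36 above them (adjusted p = 4.65e-05). The first call ended without control replicate 2, where the difference was 0.86. Both calls support nothing beyond the counts, since ITGA7 passed the filter on low counts in the plasmid groups only.

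The collagen receptors split. ITGA2, which binds fibrillar collagen, had 115.2 and 110.3 CPM in the controls, 5.58 and 4.20 CPM in the vector-labelled and 12.4 and 12.5 CPM in the ELK3-labelled libraries. It was lowest in the vector-labelled libraries, 23.1-fold below the controls, and 2.55-fold higher in the ELK3-labelled than in the vector-labelled libraries (1.32 ± 0.21, adjusted p = 1.68e-06). ITGA1, which prefers the collagen of basement membranes and lies with 1 coding gene between it and ITGA2 on chromosome 5, had group means of 13, 12.8 and 13.1 CPM. The 3 groups overlapped, and ITGA1 was called in none of the 3 contrasts (standard errors of 0.2 to 0.22). ITGA10 and ITGA11, the other collagen-binding alpha subunits, had at most 7 counts in any library and were not tested.

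Among alpha subunits that bind RGD proteins, ITGA5 and ITGAV were lower than in the controls and ITGA8 and ITGA2B higher. ITGA5, the fibronectin receptor, had 42.0 and 39.8 CPM in the controls, 6.17 and 6.20 CPM in the vector-labelled and 11.9 and 12.3 CPM in the ELK3-labelled libraries. The levels formed 3 separate steps, with log2 fold changes of -2.72 ± 0.19 and -1.75 ± 0.16 from the controls and 0.97 ± 0.21 between the plasmid groups (adjusted p = 0.000171). ITGAV, which pairs with several beta subunits and binds vitronectin and latent TGF-beta, showed the same order at smaller size, from 42.0 and 48.0 CPM to 19.5 and 19.2 CPM and to 25.9 and 28.0 CPM. Its difference between the plasmid groups, 0.48 ± 0.15 (adjusted p = 0.00553), lost its call without ELK3-labelled replicate 2 (adjusted p = 0.0564). ITGA8, known from the developing kidney, had 1.05 and 0.860 CPM in the controls, 10.9 and 15.2 CPM in the vector-labelled and 2.86 and 1.81 CPM in the ELK3-labelled libraries. ITGA8 was 13.7-fold higher in the vector-labelled libraries than in the controls (3.73 ± 0.41, adjusted p = 6.17e-10) and 5.58-fold lower in the ELK3-labelled than in the vector-labelled libraries (-2.51 ± 0.3, adjusted p = 1.22e-08). Calls against the controls support nothing beyond the counts here, since ITGA8 passed the filter on low counts in the plasmid groups only. Its difference between ELK3-labelled libraries and controls was 1.22 ± 0.54 (adjusted p = 0.0486), a call that ended without control replicate 1 (adjusted p = 0.0911) or 2 (0.16), ELK3-labelled replicate 1 (0.216) or vector-labelled replicate 2 (0.0513), with DESeq2's size factors (0.0506), DESeq2 (0.0985), limma-voom (0.112) and no filter (0.0531). ITGA2B, the alpha subunit of the platelet fibrinogen receptor, had 2 counts over the controls, both in replicate 1, against 53 in the vector-labelled libraries, a ratio of 21.2 (95% counting interval 5.58 to 179), and 34 in the ELK3-labelled libraries, a ratio of 10.2 (2.62 to 87.8). Fitted log2 fold changes of so few counts depend on single libraries: 4.27 and 3.22 became 7.84 and 6.8 without control replicate 1, which leaves 0 control counts, and 3.33 and 2.29 without control replicate 2. The second was 2.63 without ELK3-labelled replicate 2. Its partner ITGB3 had at most 6 counts in any library. The 7 platelet markers examined summed to 2.72 to 3.44 CPM in the controls, 4 to 6.61 in the vector-labelled and 2.86 to 4.36 in the ELK3-labelled libraries, with GP9 at 0 counts in every library; the 1 of them with enough counts to test was not called in any contrast. The part of platelet transcripts in the ITGA2B result was not tested.

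**Figure D1:**
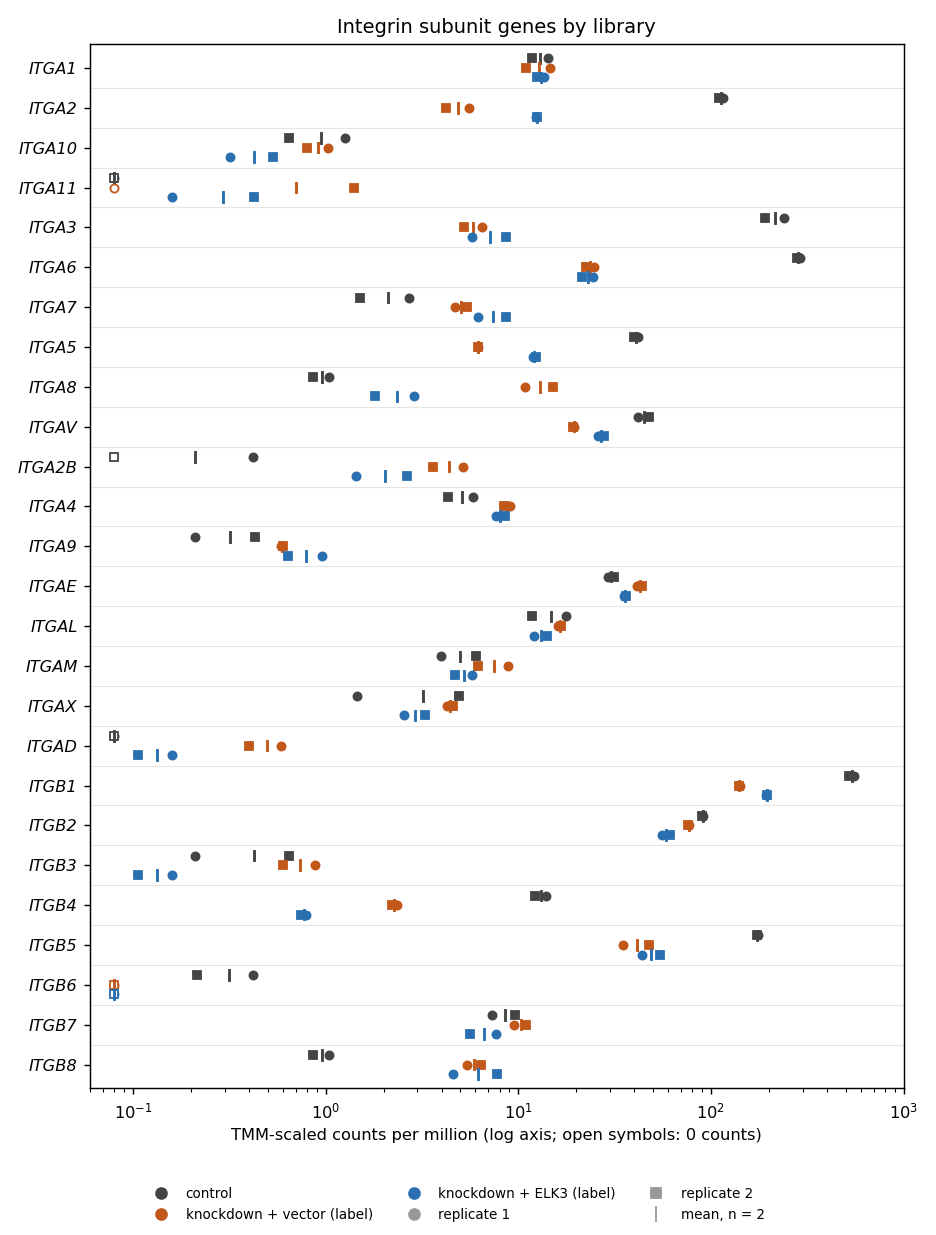
TMM-scaled CPM of the 26 integrin subunit genes on a log axis, 1 symbol per library (circle, replicate 1; square, replicate 2), with group means (n = 2) as vertical ticks and open symbols for 0 counts. Controls sit far to the right of both plasmid groups for ITGA3, ITGA6, ITGA2, ITGB1 and ITGB5 and to the left for ITGA8 and ITGB8, and all 3 groups overlap for ITGA1.

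The beta subunits set the pool of partners. ITGB1, the common partner of collagen, laminin and fibronectin receptors, had 554.4 and 521.2 CPM in the controls, 141.9 and 139.5 CPM in the vector-labelled and 194.3 and 194.5 CPM in the ELK3-labelled libraries. It was 3.82-fold and 2.77-fold lower than in the controls, and 1.38-fold higher in the ELK3-labelled than in the vector-labelled libraries (0.47 ± 0.09, adjusted p = 1.9e-05). ITGB5, which pairs with ITGAV, fell from 174.6 and 173.7 CPM to 34.8 and 47.6 CPM and to 43.7 and 54.3 CPM. Its log2 fold changes from the controls were -2.1 ± 0.12 and -1.82 ± 0.11. Between the plasmid groups, which overlapped, ITGB5 differed by 0.28 ± 0.13 (adjusted p = 0.0544). It passed the threshold with library totals (adjusted p = 0.0378), limma-voom (0.048), no filter (0.00823) and only the 4 libraries compared (0.0443). It also passed with any one of 4 libraries left out (each control, vector-labelled replicate 2, ELK3-labelled replicate 1), at differences of 0.3 to 0.52. ITGB8, another partner of ITGAV that takes part in activating TGF-beta, rose from 1.05 and 0.860 CPM to 5.44 and 6.40 CPM and to 4.61 and 7.76 CPM (2.6 ± 0.47 and 2.71 ± 0.45, adjusted p = 1.01e-05 and 3.48e-06). These calls support nothing beyond the counts, since ITGB8 passed the filter on low counts in the plasmid groups only. ITGB6 had 2 and 1 counts in the controls and 0 counts in the other 4 libraries, a difference not detectable at this depth.

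Integrins of leukocytes changed little beside these. ITGB2, the beta subunit of leukocyte adhesion receptors, had 91.2 and 90.1 CPM in the controls, 77.4 and 76.2 CPM in the vector-labelled and 55.7 and 61.7 CPM in the ELK3-labelled libraries. The groups did not overlap, with log2 fold changes of -0.24 ± 0.1 (adjusted p = 0.0343) and -0.62 ± 0.1 (adjusted p = 2.23e-06) from the controls and -0.38 ± 0.1 between the plasmid groups (adjusted p = 0.00133). The first of these calls ended without any one of the 4 libraries compared (adjusted p = 0.0531 to 0.0857), and also with DESeq2 (0.109), with a filter of 10 CPM (-0.14, 0.209) and with a fit of those 4 alone (0.0532). With library totals in place of TMM it was -0.1 (adjusted p = 0.358). ITGAL, the partner of ITGB2 on lymphocytes, had 17.8 and 11.8, 16.2 and 16.6, and 12.1 and 14.1 CPM in controls, vector-labelled and ELK3-labelled libraries, and was not called. ITGAM and ITGAX, neighbours on chromosome 16, were not called either, at group means of 5, 7.51 and 5.2 CPM and of 3.2, 4.43 and 2.92 CPM. ITGAM passed the threshold in the vector-labelled libraries against the controls with library totals in place of TMM (0.75, adjusted p = 0.03). With replicate 2 of the controls (0.92) or of the vector-labelled libraries (0.8) left out it also passed the threshold there. Between the plasmid groups it passed the threshold with the latter left out (-0.77). ITGAX passed it in the vector-labelled libraries without control replicate 2 (1.56, adjusted p = 0.0169). ITGB7 was called only between the plasmid groups, at 9.55 and 11.0 against 7.63 and 5.63 CPM (-0.65 ± 0.24, adjusted p = 0.0211), and leaving out replicate 2 of the vector-labelled (0.122) or of the ELK3-labelled libraries (0.255), or using DESeq2 (0.127), ended that call. Its partner ITGAE, the receptor for E-cadherin on lymphocytes, rose in the vector-labelled libraries from 29.3 and 31.4 to 41.6 and 44.0 CPM (0.49 ± 0.13, adjusted p = 0.00125). In the ELK3-labelled libraries it stood at 35.5 and 36.4 CPM, a difference from the controls that was called with library totals in place of TMM (adjusted p = 0.00835) and not with TMM (0.25 ± 0.13, adjusted p = 0.103). ITGA4, which binds VCAM1 and fibronectin, rose from 5.86 and 4.30 CPM to 9.11 and 8.40 CPM and to 7.63 and 8.51 CPM (0.79 ± 0.28 and 0.67 ± 0.27, adjusted p = 0.0126 and 0.0321). ITGA9, a close relative of ITGA4, had at most 6 counts in any library, and ITGAD, next to ITGAX, had 0 counts in both controls and at most 4 elsewhere, so neither was tested. The ITGA4 calls ended without control replicate 2 (adjusted p = 0.143 and 0.25), the first also without vector-labelled replicate 1 (0.0726) and the second without ELK3-labelled replicate 2 (0.153). With DESeq2 neither was called (0.074 and 0.148).

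Transcripts of lymphocytes and NK cells were present in every group and moved in part with ITGB2. All 18 markers had counts in each group, and their sum was 388.1 to 390.1 CPM in the controls, 379.6 to 400.7 in the vector-labelled and 290.7 to 314.8 in the ELK3-labelled libraries. Of 16 tested, 0 were higher and 7 lower in the ELK3-labelled libraries than in the controls, and 0 higher and 8 lower than in the vector-labelled libraries. Over all genes tested, the shares in these contrasts were 31.8% higher and 30.8% lower, then 30.0% and 29.6%. For the vector-labelled libraries against the controls they were 37.0% and 35.3%. No marker was higher at an unadjusted p under 0.05 or by DESeq2 or limma-voom (0 in each), while DESeq2 called 3 and 2 lower. The count against the controls was 2 without ELK3-labelled replicate 1, and that against the vector-labelled libraries was 1 without vector-labelled replicate 1, 4 without ELK3-labelled replicate 1 and 5 without ELK3-labelled replicate 2. In the vector-labelled libraries against the controls 0 were higher and 1 lower. PTPRC, or CD45, the common leukocyte marker, had 29.3 and 33.5, 36.1 and 33.8, and 24.3 and 24.1 CPM in the 3 groups. Myeloid markers summed to 164.6 to 165.4, 170.3 to 182.0 and 135.8 to 138.5 CPM, with 1 higher and 0 lower of 11 in the vector-labelled libraries (0 and 0 by DESeq2 and by limma-voom), 0 higher and 1 lower in the ELK3-labelled libraries, and 0 higher and 3 lower between the plasmid groups. The 1 higher was 0 without any one of 4 libraries (both controls, vector-labelled replicate 1, ELK3-labelled replicate 1), and the 3 lower were 1 without ELK3-labelled replicate 2. The source of these transcripts, and their part in the values of ITGB2, ITGAL, ITGAM, ITGAX, ITGB7 and ITGAE, was not tested.

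Against the controls, laminin alpha chains changed in both directions, while every tested beta chain fell. LAMA3 and LAMB3, chains of epithelial laminin, were both lower in the ELK3-labelled libraries than in the controls. LAMB3 had 165.8 and 167.1 CPM in the controls, 8.37 and 7 CPM in the vector-labelled and 4.61 and 3.83 CPM in the ELK3-labelled libraries. The 3 groups did not overlap, and LAMB3 was 21.7-fold lower (-4.42 ± 0.14, adjusted p = 5.26e-24) and 39.5-fold lower (-5.32 ± 0.14, adjusted p = 1.03e-25) than in the controls. LAMA3 had 5.86 and 4.09, 4.55 and 3, and 3.18 and 1.06 CPM, and its calls against the controls (-1.34 ± 0.43, adjusted p = 0.00698) and against the vector-labelled libraries (-0.98 ± 0.43, adjusted p = 0.0496) in the ELK3-labelled libraries rest on ELK3-labelled replicate 2, at -0.64 (adjusted p = 0.239) and -0.27 (0.65) without it. They were -2.21 and -1.83 without ELK3-labelled replicate 1, the first ended without control replicate 1 (0.0802), and the second without vector-labelled replicate 1 (0.401). With DESeq2 neither was called (0.0577 and 0.215), and the second also ended with library totals (0.0606) and with no filter on low counts (0.051).

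LAMA1 and LAMA4 rose in both plasmid groups. Both passed the filter on low counts in the plasmid groups only, so their calls against the controls support nothing beyond the counts. LAMA1, the chain of the first basement membranes of the embryo, had 0.209 and 1.08 CPM in the controls (1 and 5 counts), 9.70 and 11.6 CPM in the vector-labelled and 18.8 and 21.7 CPM in the ELK3-labelled libraries. The groups formed 3 steps, and LAMA1 was 1.9-fold higher in the ELK3-labelled than in the vector-labelled libraries (0.95 ± 0.2, adjusted p = 0.000125). Its log2 fold change from the controls to the vector-labelled libraries, 4.01 ± 0.43, was 3.25 without control replicate 1 and 5.51 without control replicate 2, and that to the ELK3-labelled libraries 4.22 and 6.47. LAMA4, a chain of vessel walls and mesenchyme, rose from 1.46 and 1.29 CPM to 15.6 and 14.2 CPM and to 21.1 and 16.7 CPM (3.42 ± 0.33 and 3.74 ± 0.31). LAMA2, the chain of muscle and nerve, was raised in the vector-labelled libraries alone, with 1.88 and 1.72 CPM in the controls, 7.79 and 8.20 CPM in the vector-labelled and 1.11 and 1.28 CPM in the ELK3-labelled libraries. LAMA2 was 4.44-fold higher than in the controls there (2.13 ± 0.38, adjusted p = 7.52e-06) and 6.69-fold lower in the ELK3-labelled than in the vector-labelled libraries (-2.7 ± 0.36, adjusted p = 1.04e-07). LAMA2 passed the filter on low counts in the vector-labelled libraries only, where it was high, so these p-values support nothing beyond its counts. Among the 30 tested members, LAMA2 and ITGA8 had the 2 lowest log2 fold changes between the plasmid groups. LAMA5, the widespread chain of adult epithelia, was lower, at 34.7 and 33.3 CPM in the controls, 14.1 and 11.8 CPM in the vector-labelled and 23.5 and 26.5 CPM in the ELK3-labelled libraries. It was higher in the ELK3-labelled than in the vector-labelled libraries (0.94 ± 0.16, adjusted p = 8.46e-06). Its difference between ELK3-labelled libraries and controls, -0.44 ± 0.15 (adjusted p = 0.0101), ended as a call without ELK3-labelled replicate 1 (0.0825), with DESeq2 (0.0659) and with library totals in place of TMM (0.101).

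**Figure D2:**
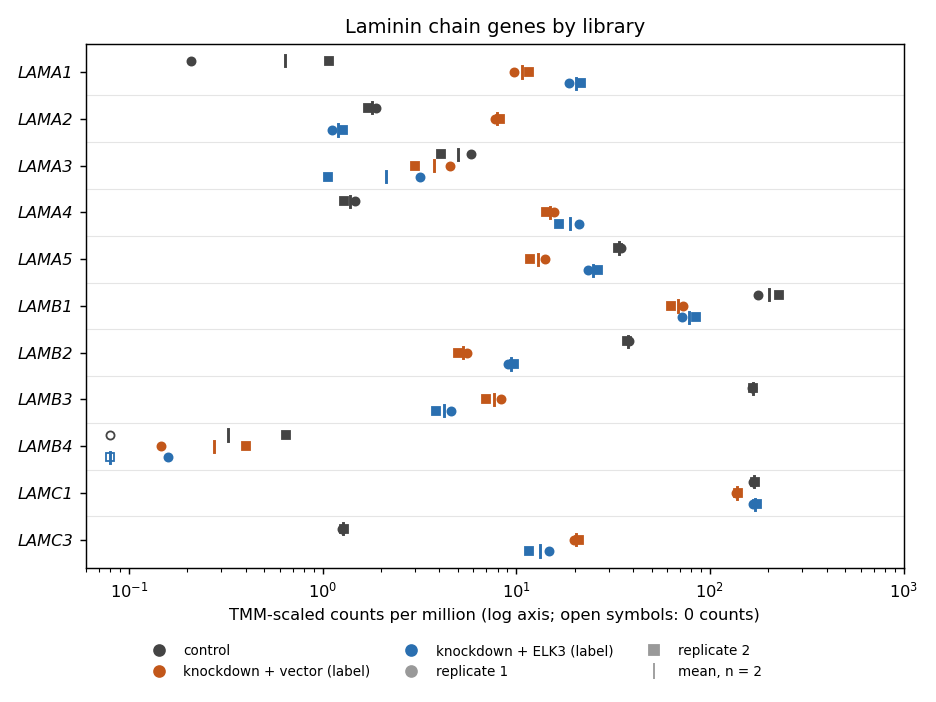
TMM-scaled CPM of 11 laminin chain genes on a log axis, 1 symbol per library (circle, replicate 1; square, replicate 2), with group means (n = 2) as vertical ticks and open symbols for 0 counts. LAMB3 and LAMB2 have their controls to the right of both plasmid groups, LAMA1, LAMA4 and LAMC3 to the left, and LAMA2 is high in the vector-labelled libraries alone.

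Beta chains other than LAMB3 fell as well. LAMB1, which forms most trimers outside the hemidesmosome, had 176.5 and 226.6 CPM in the controls, 73.0 and 63.2 CPM in the vector-labelled and 71.4 and 84.7 CPM in the ELK3-labelled libraries (-1.56 ± 0.11 and -1.36 ± 0.11). The plasmid groups overlapped for LAMB1 and differed by 0.2 ± 0.12 (adjusted p = 0.14), a difference that passed the threshold without ELK3-labelled replicate 1 (0.0448) and with no filter (0.0291). LAMB2, the beta chain of nerve-muscle junctions and the kidney filter, fell from 38.3 and 37.2 CPM to 5.58 and 5.00 CPM and to 9.06 and 9.67 CPM, with the ELK3-labelled above the vector-labelled libraries (0.82 ± 0.23, adjusted p = 0.00259). LAMB4, next to LAMB1 on chromosome 7, had at most 3 counts in any library.

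LAMC1 and LAMC3, both gamma chains, differed from each other. LAMC1, the gamma chain of most laminins, kept a high level, with 166.3 and 170.5 CPM in the controls, 136.2 and 140.3 CPM in the vector-labelled and 166.0 and 174.2 CPM in the ELK3-labelled libraries. The vector-labelled libraries lay below both other groups (-0.29 ± 0.09 from the controls, adjusted p = 0.00431), while ELK3-labelled libraries and controls overlapped (0.02 ± 0.09, adjusted p = 0.881). The first of these calls ended with library totals in place of TMM (-0.15, adjusted p = 0.115) and with a filter of 10 CPM (-0.18, 0.0516). LAMC3, a chain known from skin, brain and retina, rose from 1.25 and 1.29 CPM to 19.8 and 21.0 CPM and to 14.8 and 11.6 CPM (3.98 ± 0.32 and 3.33 ± 0.33). It was lower in the ELK3-labelled than in the vector-labelled libraries (-0.65 ± 0.18, adjusted p = 0.00286), a call that ended without ELK3-labelled replicate 2 (0.0972) and with DESeq2 (0.0579).

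The plasmid groups were also compared with each other, where the control libraries entered only through the shared scaling and fit. ELK3 itself stood at 758.9 and 697.2 CPM in the vector-labelled and at 20.4 and 22.6 CPM in the ELK3-labelled libraries. Directions follow the sample labels, so a higher member was higher where the ELK3 transcript was low. Of the 30 tested members, 8 were higher and 9 lower in the ELK3-labelled libraries, beside 59.6% of all genes called (30.0% higher, 29.6% lower), and the median was -0.03 beside -0.02 over all genes. The 9 lower members were 5 without ELK3-labelled replicate 2 and 5 with DESeq2. Cell line and cell type markers moved in this contrast too: of the HEK293 list 11 were higher and 4 lower of 24 (median 0.31), of the MDA-MB-231 list 4 were higher and 8 lower of 25 (median -0.14), and of the luminal list 4 were higher and 5 lower of 11. Their part in the members' differences was not tested. The higher members were ITGA2, ITGA5, ITGAV, ITGB1, LAMA1, LAMA5, LAMB2 and LAMC1, with log2 fold changes of 0.3 to 1.32. The lower members were LAMA2, ITGA8, ITGB4, ITGA2B, LAMA3, LAMB3, ITGB7, LAMC3 and ITGB2, with log2 fold changes of -2.7 to -0.38. Leaving out replicate 1 of the vector-labelled (adjusted p = 0.305) or of the ELK3-labelled libraries (0.202) ended the ITGA2B call, as did DESeq2 (0.178). ITGA7, which was not called at 0.59 ± 0.29, passed without ELK3-labelled replicate 1 (0.0393).

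**Figure D3:**
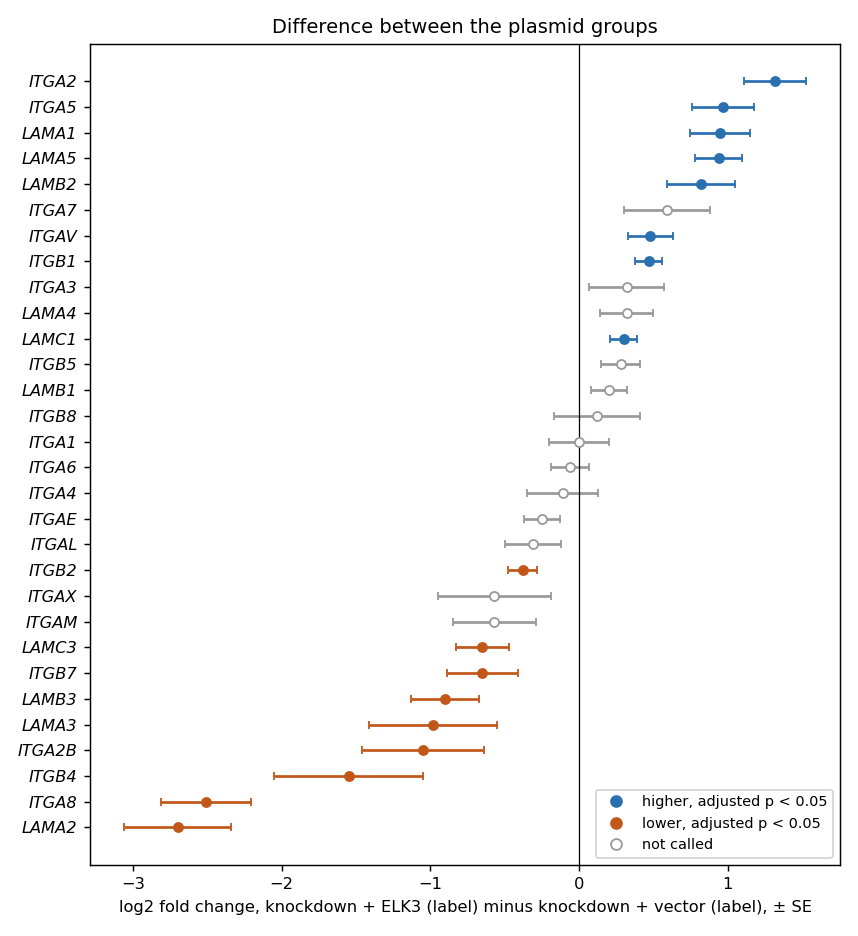
Log2 fold changes of the 30 tested members, ELK3-labelled minus vector-labelled libraries, with standard errors of the fit as bars. Filled blue points (8) were called higher and filled orange points (9) lower at an adjusted p under 0.05, open grey points were not called, and LAMA2 and ITGA8 lie apart at the lower end.

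Genes that work with integrins inside the cell mostly fell in both plasmid groups. Of 36 tested genes listed as integrin-linked adaptors and kinases, 4 were higher and 27 lower in the vector-labelled libraries (median -1.04). In the ELK3-labelled libraries 4 were higher and 24 lower (median -0.77). Beside them, 37.0% of all genes were higher and 35.3% lower, then 31.8% and 30.8%. Between the plasmid groups these shares were 30.0% and 29.6%. ACTN1, the actin cross-linker alpha-actinin, had log2 fold changes of -3.29 ± 0.1 and -2.5 ± 0.09, ITGB1BP1, which binds the tail of ITGB1, -2.49 ± 0.12 and -1.92 ± 0.11, and the scaffold paxillin (PXN) -1.74 ± 0.09 and -1.93 ± 0.09. TLN1, or talin, which activates integrins by binding the beta tail, fell from 286 to 83.7 CPM in the vector-labelled libraries, and ACTN4 had -1.62 ± 0.09 in the ELK3-labelled libraries. Vinculin (VCL) and the kinases ILK and PTK2, or focal adhesion kinase, had -0.97 ± 0.09, -0.99 ± 0.1 and -0.53 ± 0.12 in the vector-labelled libraries. The 4 higher there, named after their values were seen, were PARVB (3.58 ± 0.22), NEDD9 (2.53 ± 0.2), KANK1 (1.04 ± 0.18) and FLNA (0.76 ± 0.09). In the ELK3-labelled libraries the 4 higher were PARVB (3.23 ± 0.23), KANK1 (0.85 ± 0.18), ITGB3BP (0.77 ± 0.12) and FLNA (0.38 ± 0.09). Between the plasmid groups 16 were higher and 5 lower, a count of lower genes that was 3 by DESeq2 and with vector-labelled replicate 1 or either ELK3-labelled replicate left out. TGFB1I1, the paxillin relative Hic-5, rose from 4.26 and 4 CPM to 15.9 and 15.3 CPM in that contrast (1.9 ± 0.23), ILK by 0.42 ± 0.1 and the kindlin FERMT2 by 0.51 ± 0.11. NEDD9, a docking protein of focal adhesions, stood at 34.7 and 36.8 CPM in the vector-labelled and 7.16 and 6.91 CPM in the ELK3-labelled libraries (-2.34 ± 0.17). RSU1, which binds the ILK complex, differed by -1.34 ± 0.11. ITGB3BP, a centromere protein named for binding ITGB3 and counted in this list, differed by 1.54 ± 0.13.

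Partners outside the cell were split. Of 25 tested basement membrane genes and laminin receptors other than integrins, 9 were higher and 12 lower in each contrast with the controls (medians -0.24 and -0.44). The shares of all genes were 37.0% higher and 35.3% lower in the first contrast and 31.8% and 30.8% in the second. They were 30.0% and 29.6% between the plasmid groups. The hemidesmosome linkers PLEC and DST had log2 fold changes of -2.95 ± 0.13 and -1.67 ± 0.08 in the vector-labelled and -2.25 ± 0.12 and -1.72 ± 0.08 in the ELK3-labelled libraries, and the syndecans SDC1 and SDC4 -2.72 ± 0.14 and -1.87 ± 0.09, then -1.92 ± 0.12 and -1.83 ± 0.09. The syndecan SDC2, added here after its values were seen, rose by 1.06 ± 0.11 and 1.25 ± 0.11. NID1, or nidogen, which joins laminin to collagen IV, went up from 11.3 to 49.7 and 49.5 CPM, while the collagen IV gene COL4A1 went down from 53.4 to 32.3 and 33.4 CPM. The other collagen IV genes, also named after their values were seen, were split: COL4A2 was called lower and COL4A4, COL4A5 and COL4A6 higher in both contrasts, and COL4A3 was called higher in the vector-labelled libraries. COL4A6 had 2 counts over the controls, 24 over the vector-labelled and 45 over the ELK3-labelled libraries, and COL4A3 had 8, 30 and 26. Each passed the filter in 1 group only, where it was highest, so it entered through that difference and its calls support nothing further. The COL4A3 call ended with DESeq2 (adjusted p = 0.0852) and with control replicate 1 (0.0914), control replicate 2 (0.0831) or vector-labelled replicate 2 (0.0882) left out. The COL4A4 call in the ELK3-labelled libraries ended without control replicate 1 (0.249), without ELK3-labelled replicate 2 (0.0991) and with DESeq2 (0.106). The dystroglycan gene DAG1 and RPSA, the ribosomal protein also named laminin receptor, had -0.82 ± 0.11 and -0.44 ± 0.09 in the vector-labelled libraries, and the Lutheran laminin receptor BCAM was not called there (0.18 ± 0.24). Between the plasmid groups 6 were higher and 2 lower, among them AGRN, or agrin (0.46 ± 0.12), SDC1 (0.8 ± 0.15), PLEC (0.7 ± 0.15) and the tetraspanin CD151 that binds laminin receptors (0.3 ± 0.09). Leaving out replicate 1 of the vector-labelled (adjusted p = 0.0639) or replicate 2 of the ELK3-labelled libraries (0.0569) ended the CD151 call. The 6 higher genes were 3 once replicate 1 of the vector-labelled or replicate 2 of the ELK3-labelled libraries was left out. The 2 lower genes were 0 by DESeq2 and with ELK3-labelled replicate 2 left out, and 1 with any other plasmid library left out.

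Of 27 tested integrin ligands, 8 were higher and 14 lower in the vector-labelled and 7 higher and 14 lower in the ELK3-labelled libraries (medians -0.43 and -0.54). Over all genes tested these shares were 37.0% and 35.3%, then 31.8% and 30.8%, and 30.0% and 29.6% between the plasmid groups. The matrix proteins CYR61 and CTGF had log2 fold changes of -2.7 ± 0.09 and -2.89 ± 0.11, then -3.09 ± 0.09 and -2.07 ± 0.1, and the semaphorin SEMA7A, a ligand of ITGB1 receptors, -4.15 ± 0.18 and -4.18 ± 0.17. THBS1, or thrombospondin, was at -4.47 ± 0.17 in the ELK3-labelled libraries, and fibronectin (FN1) at -0.43 ± 0.08 and -0.59 ± 0.08 in the 2 contrasts. JAM3, a junction protein that binds ITGAM, rose from 15.6 to 149 CPM in the vector-labelled libraries. NPNT, or nephronectin, the ligand of ITGA8, was picked after its values were seen: it rose by 4.11 ± 0.34 in the vector-labelled and 3.93 ± 0.34 in the ELK3-labelled libraries. These were 3.37 and 3.21 without control replicate 1 and 5.52 and 5.36 without control replicate 2. Between the plasmid groups 2 ligands were higher and 9 lower, with CTGF at 0.82 ± 0.12, JAM3 at -0.68 ± 0.09, CYR61 at -0.39 ± 0.09 and VTN at -0.48 ± 0.1. With vector-labelled replicate 1 left out, these were 1 and 5, and with either ELK3-labelled replicate left out the higher ligands were 1. VTN, or vitronectin, is made by the liver, and ALB, liver albumin, stood at 3723 and 3822 CPM in the controls, at 3986 and 3717 CPM in vector-labelled libraries and at 3011 and 3165 in the ELK3-labelled libraries. The part of liver transcripts in the VTN value was not tested.

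**Figure D4:**
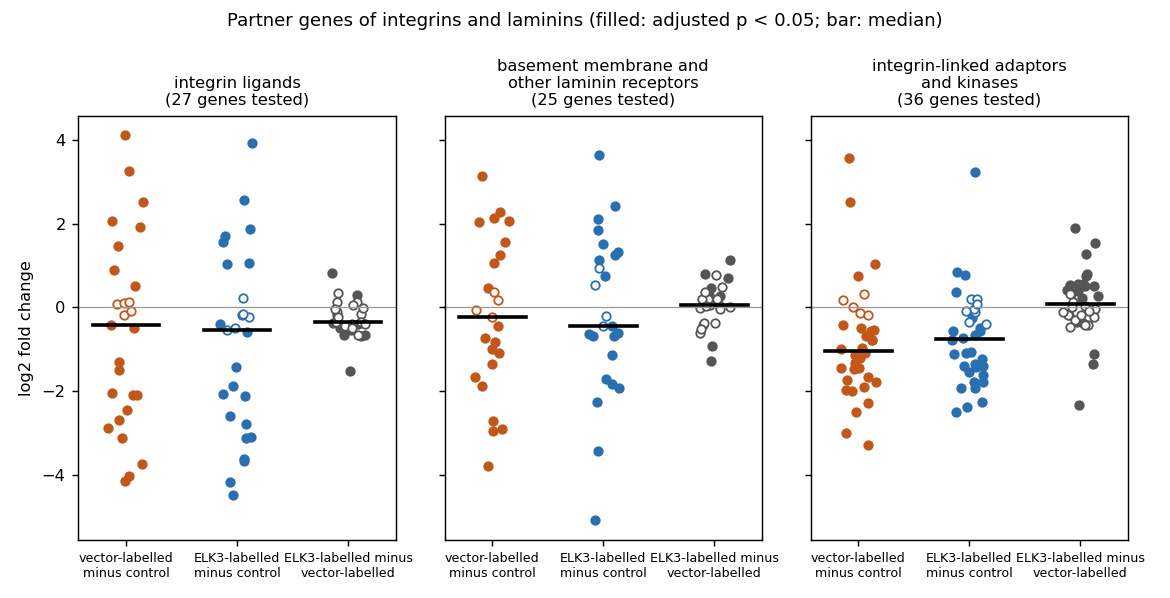
Log2 fold changes of the tested genes of 3 lists (27 integrin ligands, 25 basement membrane genes and other laminin receptors, 36 integrin-linked adaptors and kinases) in the 3 contrasts, 1 point per gene, filled where the adjusted p was under 0.05, with the median as a bar. The adaptors and kinases have the lowest medians against the controls (-1.04 and -0.77), and the medians between the plasmid groups are -0.36, 0.05 and 0.09.

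Markers of other cell types were read beside these genes. For the counts that follow, 37.0% of all genes were higher and 35.3% lower in the vector-labelled libraries against the controls. In the ELK3-labelled libraries these shares were 31.8% and 30.8%. Endothelial markers summed to 97.4 to 108.1 CPM in the controls, 34.8 to 39.1 in the vector-labelled and 33.9 to 39.0 in the ELK3-labelled libraries, with 1 higher and 3 lower of 8 tested, then 0 higher and 2 lower. The 0 was 1 at an unadjusted p under 0.05, by limma-voom and without control replicate 1, and 0 by DESeq2, and the 1 higher was 0 without vector-labelled replicate 1. Fibroblast markers summed to 58.3 to 59.6, 85.6 to 101.7 and 81.9 to 90.5 CPM, with 3 higher and 0 lower of 7 (0 lower at an unadjusted p, by DESeq2 and by limma-voom), then 3 higher and 1 lower, the last of which was 0 without either control replicate or ELK3-labelled replicate 2. Luminal markers summed to 469.6 to 483.7, 560.7 to 562.8 and 755 to 803.3 CPM, with 6 higher and 4 lower of 11, then 6 and 2. Basal and myoepithelial markers summed to 68.6 to 77.2, 74.3 to 81.4 and 83.5 to 90.8 CPM, with 4 higher and 1 lower of 5, then 3 and 1. The part of such cells or lines in the laminin and integrin values was not tested. In bulk RNA, fewer cells of a type and less RNA per cell cannot be told apart.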

How the data were processed

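The files hold read counts per gene symbol, 1 file per library, as deposited by the authors. Bowtie2, edgeR and hg19 are named in the submitters' processing notes, with no versions; the counting tool, gene annotation and strand setting are not given in the sources used here. The labels name a 3' sequencing kit, and whether counts scale with transcript length was not settled, so levels are compared within genes only. Lines with the same symbol were summed (286 symbols on 1561 of 25737 lines, none of them members).

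Genes over 1.81 CPM in at least 2 libraries were kept (15386), scaled by TMM and fitted with edgeR 4.0.16 in R 4.3.3, 1 mean per group over all 6 libraries, with robust quasi-likelihood tests (two-sided, residual df 3, common biological coefficient of variation 0.0645). Log2 fold changes are from that fit, SE is the fold change divided by the root of F, fold values are ratios of group mean CPM, and p-values were Benjamini-Hochberg adjusted over all genes tested. The fit was also run on simulated counts, with control means in every group and few genes changed. Most genes were called in the real data, so that run cannot test the calls given here. Alternatives used DESeq2 1.42.0, limma-voom (limma 3.58.1), DESeq2 size factors or library totals, no filter or 10 CPM in 2 libraries, a replicate block, a fit of 4 libraries for each comparison, and fits without each library.

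Groups follow the sample labels. 1 gene that the choice by symbol takes stayed in the fit but is not reported here. Every member could be named, and of the partner lists (ligands, basement membrane genes, adaptors) up to 4 genes per contrast with the smallest p and 12 set genes. PTPRC, ALB, GP9, NPNT, SDC2, PARVB, KANK1, FLNA and the collagen IV genes other than COL4A1, and repeated values of named genes in other contrasts, are outside that rule. Members, partner lists and marker lists (lymphocytes, myeloid cells, platelets, endothelium, fibroblasts, luminal, basal, MDA-MB-231 and HEK293) were chosen with earlier results of these data known. Promoter sequences are RefSeq's, and no coordinates of the deposited files were used.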

Additional observations from a re-analysis of the deposited data

How the results depend on the processing

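With 10 CPM in 2 libraries as the filter, 5 members were higher in the vector-labelled and 4 in the ELK3-labelled libraries than in the controls, since fewer low genes were tested. DESeq2 called 5 members lower between the plasmid groups; the cause was not tested. Leaving out 1 library gave 9 to 11 members higher and 13 to 14 lower in the vector-labelled libraries, 6 to 8 and 13 to 14 in the ELK3-labelled libraries, and 7 to 11 and 5 to 9 between the plasmid groups. All genes called ranged over 10260 to 11277, 8486 to 9743 and 7778 to 9704 in the same 3 contrasts.

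Replicate numbers gave no sign of pairing: deviations of same-numbered libraries correlated at -0.0556, 0.0332 and -0.000659. With the number as a block, 10 members were higher and 14 lower, 7 and 14, and 8 and 8, and 11057, 9531 and 9051 of all genes were called. The block ended the ITGA8 call of ELK3-labelled libraries against controls (adjusted p = 0.0523) and the LAMA3 call between the plasmid groups (0.0597), and no other call of a member.

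Library totals in place of TMM moved the median of all genes by 0.13, 0.16 and 0.03 (log2). Of 1231 values of members under an alternative, 1134 kept their direction and side of the threshold, 48 lost their call, 18 gained one and 31 changed sign. Every change of sign was in a value not called in the main analysis. In the vector-labelled libraries against the controls, ITGA1 was 0.13 with library totals, 0.1 with the 10 CPM filter and 0.02 with only the 4 libraries compared. Without single libraries it ran from -0.25 to 0.16, ITGAX from -0.18 to 1.56 and ITGAL from -0.14 to 0.45. In the ELK3-labelled libraries against the controls, ITGA1 was 0 with DESeq2 size factors, DESeq2 and limma-voom, and ITGAX was 0.06 with library totals and 0.12 with limma-voom. Without single libraries ITGA1 ran from -0.13 to 0.14, ITGAX from -0.73 to 1, ITGAL from -0.43 to 0.16, ITGAM from -0.23 to 0.36 and LAMC1 from -0.02 to 0.05. Between the plasmid groups, ITGA1 was 0 with limma-voom and -0.06 with the 10 CPM filter, and ITGA6 was 0 with no filter. Without single libraries ITGA1 ran from -0.16 to 0.25, ITGA6 from -0.13 to 0.05, ITGA3 from -0.04 to 0.55 and ITGB8 from -0.34 to 0.41. The cause of these changes was not tested.

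Groups of 2 libraries leave 3 residual degrees of freedom. Where a library was left out, the lone library of its group is assumed to vary like the other groups. Depth limits the genes with few counts: the 7 untested members, ITGA2B, and LAMA1 in the controls.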

Other observations

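Symbols that share the prefix of the families but encode other products were left out of the members. ITGBL1, a secreted protein that resembles the stalk of integrin beta subunits, had 21 and 18 counts in control libraries, 6 and 7 counts in vector-labelled and 1 and 1 in ELK3-labelled libraries. The 3 groups did not overlap, and edgeR's adjusted p was 0.00112 for the vector-labelled and 3.37e-07 for the ELK3-labelled libraries against the controls, and 0.00581 between the plasmid groups. ITGBL1 passed the filter on low counts in 1 group only, the controls, where it was high. A gene that entered in that way was kept through a level that is lower elsewhere, so these p-values support nothing beyond its counts. ITGB2-AS1, antisense to ITGB2, had 8 and 8, 6 and 3, and 5 and 16 counts in the 3 groups, and with the strand setting not known its reads and those of ITGB2 may not be separate. The pseudogene LAMB2P1 had at most 5 counts in any library.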
